A study of Homo sapiens with 114 samples.

Results

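The genes described here are the members of the FOS and JUN families that make up the transcription factor AP-1, in HK-2 cells exposed to 9 compounds. The 7 genes FOS, FOSB, FOSL1, FOSL2, JUN, JUNB and JUND were chosen by name, out of 19775 genes with a symbol on the array, and were followed in all 26 treated groups against the control of the same time. HK-2 is an immortalized human line of renal proximal tubular epithelial cells. RNA was measured on Affymetrix arrays in 38 groups of 3 cultures, 26 treated and 12 control. All cultures were kept in medium with epidermal growth factor, insulin and hydrocortisone and were treated near confluence, and the controls received the vehicle.

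The labels name the compounds by abbreviation and the doses as high or low. Ota, Aa, Kbr and Nnm have both doses, sampled after 24 and 72 h for Ota and after 24 and 48 h for the other 3. The remaining 5, which are Di, CdCl, Ra, Fk and CsA, have a single dose and were sampled after 12 and 48 h. Separate controls exist at each time for Ota, for Aa and for CsA. Kbr and Nnm have common controls, Ra and Fk have common controls, and so do Di and CdCl. Responses to compounds that share controls are therefore not independent of each other. The labels place the CsA arrays in a lab 3 and name no laboratory for the others. They call the 3 arrays of a group biological replicates and say no more of their origin, so the p-values measure the spread between these cultures.

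AP-1 is a dimer of basic leucine zipper proteins. JUN proteins pair with each other or with FOS proteins, whereas FOS proteins need a partner, and the dimers bind the sequence TGAGTCA, known as the TPA response element. The related cyclic AMP response element, TGACGTCA, is bound by JUN paired with ATF proteins. FOS, FOSB, JUN and JUNB are immediate early genes, switched on by growth factors and stress through MAP kinases without new protein synthesis. FOSL1 and FOSL2, which lack the strong activation domain of FOS, usually follow later, and FOSL1 is itself a target of AP-1. JUND is expressed steadily in most resting cells. In kidney epithelium these genes are known to respond to injury, oxidants and metals.

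The start regions of 6 of the 7 genes are given by RefSeq in the GRCh38.p14 build, and 4 are shown, since FOS, FOSB and JUN rose together with Aa and JUND fell with Ota. Each is the 250 bases before the start of the gene, in the direction of transcription. FOS lies on chromosome 14 (chr14:75278578-75278827, plus strand), FOSB and JUND on chromosome 19 (chr19:45467746-45467995, plus strand, and chr19:18281623-18281872, minus strand) and JUN on chromosome 1 (chr1:58784048-58784297, minus strand). Capitals mark matches, on either strand, to TGACG, TGACGTCA or TGACATCA. The first is the leading part of the cyclic AMP response element and overlaps each match to the second. The third is a variant of that element.

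FOS: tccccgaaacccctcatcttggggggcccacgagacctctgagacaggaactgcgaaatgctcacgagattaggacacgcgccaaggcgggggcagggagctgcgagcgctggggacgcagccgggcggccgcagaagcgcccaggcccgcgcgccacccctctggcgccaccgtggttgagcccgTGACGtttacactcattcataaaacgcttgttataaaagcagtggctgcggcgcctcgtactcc

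FOSB: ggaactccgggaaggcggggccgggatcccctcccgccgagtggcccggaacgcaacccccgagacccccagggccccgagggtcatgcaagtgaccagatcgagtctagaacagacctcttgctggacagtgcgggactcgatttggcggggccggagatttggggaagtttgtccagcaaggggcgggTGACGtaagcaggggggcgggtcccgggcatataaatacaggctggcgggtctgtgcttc

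JUN: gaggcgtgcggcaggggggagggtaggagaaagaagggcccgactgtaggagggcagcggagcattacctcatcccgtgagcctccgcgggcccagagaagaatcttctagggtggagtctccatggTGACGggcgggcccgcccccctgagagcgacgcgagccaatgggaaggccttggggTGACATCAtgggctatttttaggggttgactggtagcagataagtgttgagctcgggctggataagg

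JUND: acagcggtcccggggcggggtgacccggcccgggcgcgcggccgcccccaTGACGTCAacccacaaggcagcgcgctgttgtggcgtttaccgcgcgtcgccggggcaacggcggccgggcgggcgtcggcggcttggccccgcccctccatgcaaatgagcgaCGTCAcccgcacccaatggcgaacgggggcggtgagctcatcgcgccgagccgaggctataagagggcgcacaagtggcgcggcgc

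TGACG stood 64 bases before the start in FOS, 60 in FOSB and 123 in JUN. The full TGACGTCA was found in JUND, 200 bases before the start, with a further TGACG at 86, and TGACATCA in JUN at 67. JUNB held TGACG at 137 and FOSL2 at 201 and 66. TGAGTCA was not found in any of these 6 windows. Of 35114 promoter windows of the same length, 4.2% held TGAGTCA, 1.65% TGACGTCA, 2.38% TGACATCA and 21.2% TGACG, so the shorter match is common. These matches describe the letters alone.

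Each gene was read from its probe set with the highest mean. FOS, FOSB, FOSL1 and JUNB have a single probe set, JUN and JUND have 4 and FOSL2 has 5. The genes span chr14:75278828-75282230 (FOS), chr19:45467996-45475179 (FOSB), chr11:65892049-65900545 (FOSL1), chr2:28392858-28417317 (FOSL2), chr1:58780791-58784047 (JUN), chr19:12791486-12793315 (JUNB) and chr19:18279694-18281622 (JUND) in GRCh38.p14. A gene entered the tests of a control family, that is the compounds with the same controls, where its log2 value exceeded 4 on at least 3 arrays of that family. FOSL1, FOSL2, JUN, JUNB and JUND did so in all 6 families, FOSL1 with Ota through 3 arrays of which 1 was a control. With CsA, FOSL1 passed through 5 arrays, all at 12 h, of which 3 were controls. FOS was not tested with CsA or Ota. With Nnm, Kbr, Fk, Ra, CdCl and Di it passed through treated arrays alone, no control array being above 4, and with Aa through 9 arrays of which 1 was a control. FOSB was tested with Aa alone, through 4 treated arrays. For these genes a high treated group was a condition of being tested, so their counts and adjusted p-values are descriptions.

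Most arrays were alike in overall signal, with an upper quartile between 6.73 and 7.18 on the log2 scale. The exceptions were replicate 2 of Ra 48 h at 6.09 and the 3 arrays of Ota high 24 h at 6.32 to 6.59. The array of Fk 12 h replicate 3, at 6.73, also differed from its group in these genes. The median change of all genes was −0.29 in Ota high 24 h, −0.19 in Ra 48 h, −0.17 in CdCl 12 h and −0.15 in Ota high 72 h, and under 0.1 in size in the other comparisons with a control. The 3 prime minus 5 prime difference in ACTB signal, which grows as RNA degrades, was 1.14 to 1.69 in Aa high 48 h against 0.77 to 1.15 in its controls. In Ota high 72 h it was 1.66 to 2.30 against 1.16 to 1.51. The part of signal and RNA quality in the results below was not tested. Epithelial keratins and PAX8, a transcription factor of the renal lineage, were high, with median group levels of 11.4 (KRT8), 12.7 (KRT18), 11.9 (KRT19) and 10.6 (PAX8). The brush border and transport markers GGT1, ANPEP, AQP1, LRP2 and CUBN lay at background, at medians of 2.12 to 3.51, so the label of a proximal tubular cell was not borne out by its defining transporters. PTPRC, PECAM1, VWF, PDGFRB and AQP2, markers of other cell types, were also at background, at 2.32 to 3.60. COL1A1, a fibroblast collagen, stood at 7.91.

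Across the 26 comparisons with a control the 7 genes gave 154 tests and 61 calls at an adjusted p under 0.05 by limma, of which 46 were higher and 15 lower. FOSL1 rose in 10 comparisons and fell in 3, FOSL2 rose in 11 and fell in 1, and JUN rose in 11 and fell in 0. JUNB rose in 6 and fell in 4, while JUND rose in 1 and fell in 7. FOS rose in 6 of the 20 comparisons in which it was tested, and FOSB in 1 of 4. The families thus split by member: rises of FOSL1 and JUN occurred beside falls of JUNB and JUND with Kbr and Di, and beside rises of JUNB with Aa. In 57 of the 61 calls the 3 treated arrays lay entirely above or below the 3 control arrays. The same count was not made over all called genes, so it describes these calls alone. As RNA of whole cultures was measured, a lower level per cell and fewer cells with the transcript cannot be told apart.

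**Figure D1:**
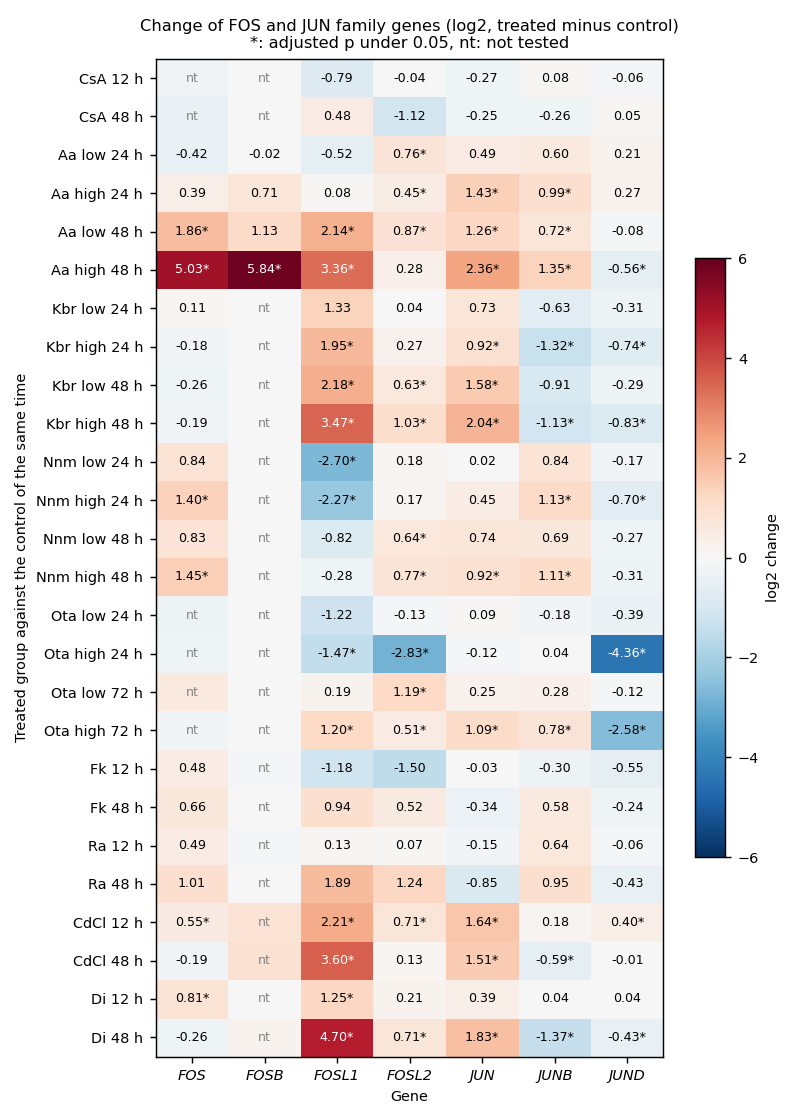
Log2 change of each gene (columns) in each treated group against the control of the same time (rows), means of 3 arrays minus 3 arrays. Red is higher and blue lower, a star marks an adjusted p under 0.05 and nt a gene that was not tested. FOSB and FOS reached 5.84 and 5.03 in Aa high 48 h, FOSL1 4.70 in Di 48 h, and JUND −4.36 in Ota high 24 h, while CsA, Fk and Ra hold no star.

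The number of these genes called is to be read against the share of all genes called in the same comparison. With Aa, 6 of 7 were called in the high dose at 48 h, where 64.3% of all genes were, and 5 of 7 in the low dose at 48 h, against 37.0%. At 24 h the high dose gave 3 of 7 against 49.9% and the low dose 1 of 7 against 23.2%. With Kbr the counts were 5 of 6 for the high dose at 48 h (background 51.1%), 3 of 6 for the low dose at 48 h (29.4%), 4 of 6 for the high dose at 24 h (21.6%) and 0 of 6 for the low dose at 24 h (1.36%). With Nnm they were 4 of 6 for the high dose at both 24 h (35.9%) and 48 h (27.7%), and 1 of 6 for the low dose at 24 h (18.5%) and 48 h (14.1%). With Ota they were 3 of 5 for the high dose at 24 h (65.0%), 5 of 5 at 72 h (63.2%), 0 of 5 for the low dose at 24 h (13.7%) and 1 of 5 at 72 h (16.0%). CdCl gave 5 of 6 at 12 h (48.7%) and 3 of 6 at 48 h (46.4%), and Di 2 of 6 at 12 h (11.8%) and 5 of 6 at 48 h (47.4%). In CsA 12 h (0.0%), CsA 48 h (0.00925%), Fk 12 h (0.00918%), Fk 48 h (0.0%), Ra 12 h (0.0367%) and Ra 48 h (9.33%) none of the 5 or 6 genes tested was called by limma. With so few genes, counts such as these are near the background in several comparisons, and the sizes and directions of the single genes follow.

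FOS, the founding member and an immediate early gene, was near background in every control, where its 36 values ran from 2.81 to 4.38. In Aa high 48 h the 3 arrays read 8.57, 8.10 and 8.84, against 3.52, 3.40 and 3.50 in the controls, with no overlap. The rise was 5.03 ± 0.33 (standard error) with an adjusted p of 1.54e-08. In Aa low 48 h the arrays read 5.50, 5.89 and 4.62, again all above the controls, a rise of 1.86 ± 0.33 (adjusted p = 0.000627). After 24 h the high dose read 4.67, 4.35 and 3.43 against 3.36, 3.83 and 4.08, a difference of 0.39 ± 0.33 that was not called, and the groups overlapped. FOS was thus far above all other groups in Aa high 48 h alone: of the 37 gaps between neighbours in the order of the 38 group means, the 1 below it separated all 3 arrays and the other 36 did not.

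Smaller FOS rises were seen with Nnm, Di and CdCl, each from a control level under 4. Nnm high 24 h read 5.84, 4.26 and 5.09 against 3.32, 3.96 and 3.71, a rise of 1.40 ± 0.44 (adjusted p = 0.0178). In Nnm high 48 h the arrays read 5.18, 3.86 and 6.07, of which the second overlapped with the control values of 3.92, 3.32 and 3.52, and the rise was 1.45 ± 0.44 (adjusted p = 0.019). The low dose of Nnm differed by 0.84 at 24 h and 0.83 at 48 h and was not called. Both Nnm calls were lost when any of several single arrays was left out. The 24 h call was lost without replicate 1 (1.01) or 3 (1.39) of Nnm high 24 h or control replicate 1 (1.23). That at 48 h was lost without replicate 1 (1.38) or 3 (0.93) of Nnm high 48 h or control replicate 2 (1.32) or 3 (1.42), and the low dose at 48 h was called without its replicate 2 (1.32, adjusted p = 0.0434). In a fit of the 6 arrays of the comparison alone the 24 h call was also lost. Di 12 h read 4.85, 4.32 and 4.42 and CdCl 12 h 4.35, 4.45 and 3.99, both entirely above the shared control values of 3.62, 3.69 and 3.85. The rises were 0.81 ± 0.16 (adjusted p = 0.00627) and 0.55 ± 0.16 (adjusted p = 0.0103). Both calls were lost when all arrays entered 1 fit, and that of Di also with the arrays of the comparison alone. By 48 h FOS read 3.04 to 3.47 with these compounds, against 3.43 to 3.46. With Kbr, FOS stayed within 0.26 of its controls in size at both doses and times and was not called. In Ra 48 h the 3 arrays were spread from 2.71 to 5.40, and the difference of 1.01 ± 0.50 was called without replicate 2, at 1.70 (adjusted p = 0.0348), and with all arrays in 1 fit (adjusted p = 0.0443).

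FOSB, the closest relative of FOS, was at background in all 36 control arrays (2.13 to 2.58) and in most treated ones. The exception was Aa, where FOSB was tested only because treated arrays exceeded 4. The high dose at 48 h read 8.22, 7.73 and 8.32 against 2.26, 2.23 and 2.26, a rise of 5.84 ± 0.48 (adjusted p = 1.08e-07), the largest of any member. The low dose at 48 h read 2.39, 5.07 and 2.69, so that 1 culture carried most of the difference of 1.13 ± 0.48, which was not called (adjusted p = 0.0792). Without replicate 1 or 3 of that group it was called, at 1.63 and 1.48. After 24 h of the high dose the values 3.43, 2.33 and 3.14 lay just above the controls at 2.25 to 2.26 but under the level of 4. That difference of 0.71 was called without replicate 2 of Aa low 48 h, whose spread enters the error, and when all arrays entered 1 fit. CdCl showed values of the same order, 2.46, 3.45 and 3.44 at 12 h and 3.16, 2.36 and 3.91 at 48 h, against 2.13 to 2.34 in the controls. FOSB was not tested there because none of these arrays exceeded 4. With no filter the 48 h value of 0.93 was called (adjusted p = 0.0472), and with all arrays in 1 fit both were (0.84, adjusted p = 0.00872, and 0.93, adjusted p = 0.00313). The plot of FOS and FOSB shows both patterns.

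**Figure D2:**
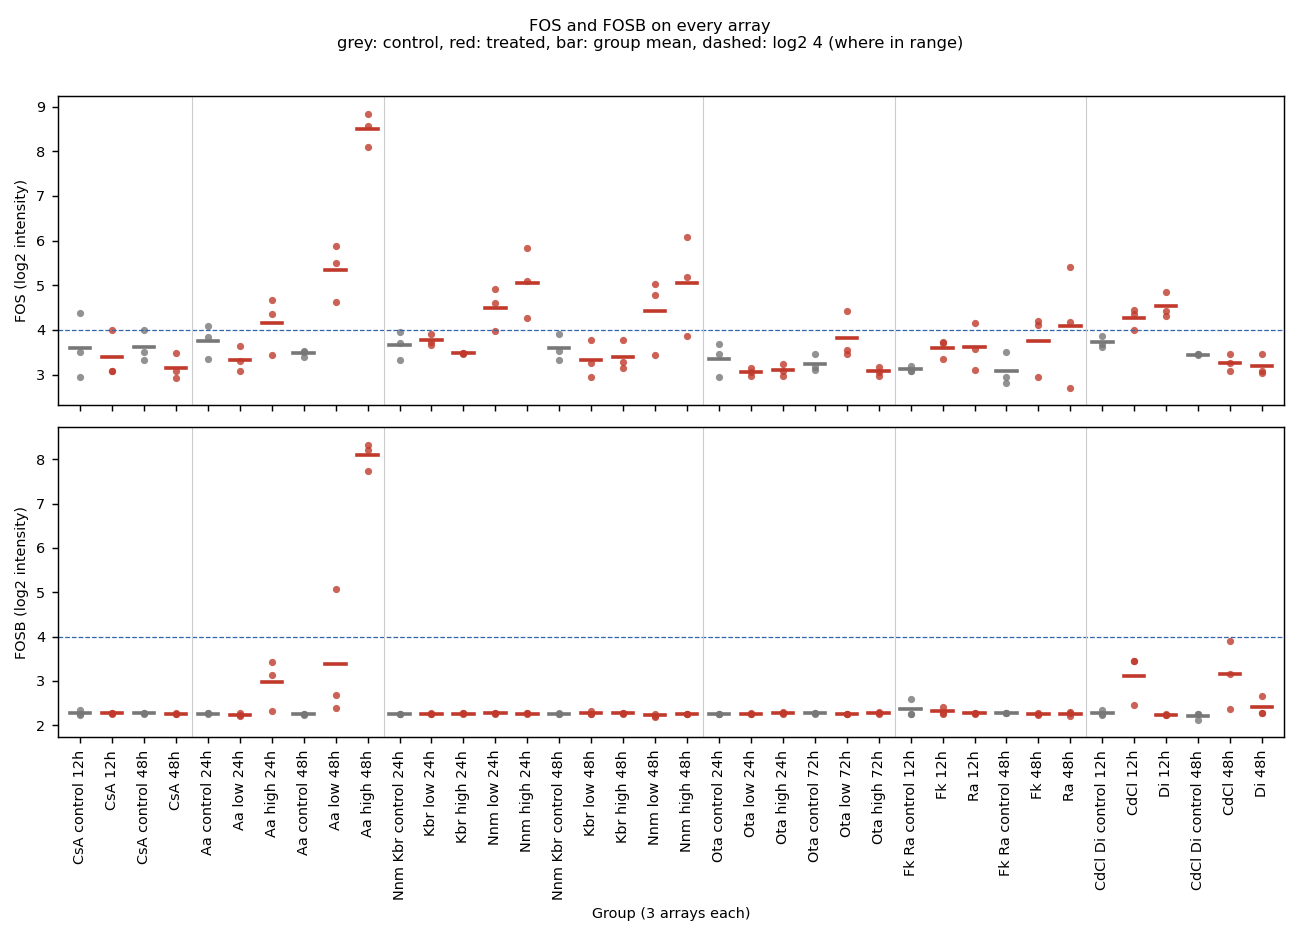
Log2 intensity of FOS (top) and FOSB (bottom) on every array, by group. Grey points are control and red points treated arrays, bars are group means and the dashed line is the level of 4 used for testing. The Aa high 48 h arrays stand at 8.10 to 8.84 for FOS and 7.73 to 8.32 for FOSB, and the controls at 2.81 to 4.38 and 2.13 to 2.58.

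FOSL1, also called FRA1, varied most with time in culture. Its 36 control values ran from 2.21 to 8.40, and the later control was lower than the earlier in all 6 families. In the controls of CsA it read 4.99, 4.94 and 6.86 at 12 h and 2.21, 2.45 and 2.94 at 48 h, a fall of 3.06 ± 0.64 to background (adjusted p = 0.0149, where 13.5% of all genes were called). No 48 h array of that family exceeded 4, so FOSL1 was tested there only through high 12 h arrays, and the value is a description. In those of Fk and Ra it read 8.21, 7.92 and 8.40 and then 4.69, 5.62 and 6.18, a fall of 2.68 ± 0.80 (adjusted p = 0.0334, background 16.0%). In those of CdCl and Di it read 5.07, 4.99 and 4.49 and then 3.93, 2.66 and 2.68, a fall of 1.76 ± 0.28 (adjusted p = 8.96e-05, background 48.9%). The controls of Aa, of Nnm with Kbr and of Ota differed by −1.84, −2.01 and −1.14 and were not called. With the replicate number as a block the first of these was called at adjusted p = 0.00623 and the next at 0.00254. The call in CsA was lost without control 48 h replicate 2 (−3.02), and that in Fk with Ra without any replicate of the 12 h controls (−2.66, −2.81 and −2.57) or replicates 1 (−2.28) or 2 (−2.74) of the 48 h ones. The Aa controls were called without their 48 h replicate 3 (−2.48), and the Ota controls without replicate 2 of Ota high 72 h (−1.14, adjusted p = 0.00238).

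Against these falling controls FOSL1 was higher with Di, CdCl, Kbr and Aa. Di 48 h read 8.05, 7.96 and 7.37 against 3.93, 2.66 and 2.68, a rise of 4.70 ± 0.28 (adjusted p = 2.99e-09). CdCl 48 h read 6.62, 6.83 and 6.60 against the same controls, a rise of 3.60 ± 0.28 (adjusted p = 7.74e-08). At 12 h both were also entirely above the controls, CdCl at 7.17, 6.85 and 7.16 with a rise of 2.21 ± 0.28 and Di at 6.06, 6.19 and 6.05 with a rise of 1.25 ± 0.28 (adjusted p = 1.43e-05 and 0.0111). The mean level with CdCl was 7.06 at 12 h and 6.68 at 48 h while the control fell, and that with Di was 6.10 and then 7.79. The Di 12 h call was lost without control replicate 3 (1.07, adjusted p = 0.0516) and with all arrays in 1 fit (1.25). Kbr high 24 h read 8.06, 7.40 and 8.37 against 6.37, 4.59 and 7.03, a rise of 1.95 ± 0.67 (adjusted p = 0.0393). Kbr high 48 h read 7.36, 6.89 and 8.13 against 3.67, 3.06 and 5.23, a rise of 3.47 ± 0.67 (adjusted p = 0.000163). The low dose at 48 h rose by 2.18 ± 0.67 to 6.37, 5.23 and 6.89. At 24 h it read 7.47, 6.54 and 7.98, which overlapped with the controls, and 1.33 was called with the replicate block (adjusted p = 0.0315). Aa high 48 h read 7.90, 7.61 and 8.06 against 4.52, 3.16 and 5.79, a rise of 3.36 ± 0.59 (adjusted p = 0.000144), and Aa low 48 h rose by 2.14 ± 0.59. At 24 h neither dose of Aa differed by over 0.52 in size.

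Several of these FOSL1 calls were lost when any of several single arrays was left out. That of Kbr high 24 h was lost without its replicates 1 (1.89) or 3 (1.73) or control replicates 1 (2.13) or 2 (1.24), the last a move by over 1.5 times, and with no filter (1.95). That of Kbr low 48 h was lost without its replicates 1 (2.08) or 3 (1.82) or control replicates 1 (2.02) or 2 (1.72), and that of Aa low 48 h without its replicate 3 (1.86) or control replicate 2 (1.47). The rises of Di 48 h, CdCl 12 h, CdCl 48 h, Kbr high 48 h and Aa high 48 h were called whichever single array was left out.

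FOSL1 was lower with Nnm at 24 h and with Ota at 24 h. Nnm low 24 h read 2.82, 3.69 and 3.39 and Nnm high 24 h 3.95, 3.13 and 4.10, against 6.37, 4.59 and 7.03, with no overlap. The changes were −2.70 ± 0.67 (adjusted p = 0.00802) and −2.27 ± 0.67 (adjusted p = 0.0115), both to background. Each was lost without control replicate 3, at −2.18 and −1.76, and the second also in a fit of the comparison's arrays alone. By 48 h, with controls at 3.06 to 5.23, the Nnm arrays read 2.33 to 4.92 and were not called. Ota high 24 h read 2.72, 2.22 and 2.68 against 3.97, 3.83 and 4.24, a change of −1.47 ± 0.42 (adjusted p = 0.00654) from a control level itself near 4. Ota low 24 h read 3.01, 2.68 and 2.69, a difference of −1.22 that was called without replicate 2 of Ota high 72 h alone (adjusted p = 0.0031). At 72 h the direction was the opposite: Ota high 72 h read 4.25, 2.69 and 5.28 against 2.80, 3.14 and 2.67, overlapping, a rise of 1.20 ± 0.42 (adjusted p = 0.0219). The value was 1.89 without replicate 2 of the treated arrays, and the call was lost without control replicates 1 (1.17) or 3 (1.10), with no filter and with all arrays in 1 fit (1.20 in both).

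FOSL2, also called FRA2, was measured well above background in every control (6.63 to 9.41). By its brightest probe set it rose modestly with most compounds at the later time. Kbr high 48 h read 8.69, 8.44 and 8.37 against 7.29, 7.56 and 7.56, a rise of 1.03 ± 0.17 (adjusted p = 2.09e-05). Ota low 72 h read 7.76, 7.83 and 8.02 against 6.63, 6.66 and 6.75, a rise of 1.19 ± 0.19 (adjusted p = 0.00056). Aa low gave 0.76 at 24 h and 0.87 at 48 h, Aa high 0.45 at 24 h, Kbr low 48 h 0.63, Nnm high 48 h 0.77, Nnm low 48 h 0.64, Ota high 72 h 0.51, and Di 48 h and CdCl 12 h 0.71 each, all called. The arrays of each of these 11 groups lay entirely above their controls. The 1 fall was the largest change: Ota high 24 h read 4.77, 4.36 and 4.96 against 7.70, 7.51 and 7.36, a change of −2.83 ± 0.19 (adjusted p = 4.91e-09). The arrays of that group had a low upper quartile, and the median change of all genes in it was −0.29. After quantile normalization, which makes the arrays alike in distribution, the fall was −1.92 and still called. In CsA 48 h the values 6.32, 6.23 and 5.76 lay below the controls at 7.32, 6.86 and 7.49, a difference of −1.12 ± 0.52 that was not called.

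Calls of FOSL2 that ended without an array were Aa high 24 h, without control replicates 1 (0.39) or 3 (0.44) or treated replicates 1 (0.47) or 2 (0.30), Nnm low 48 h, without control replicate 1 (0.55) or treated replicates 1 (0.64) or 3 (0.48), and Ota high 72 h, without control replicates 1 (0.49) or 2 (0.50) or treated replicates 1 (0.49) or 3 (0.39). FOSL2 was called in Aa high 48 h (0.43) without control or treated replicate 3 and in Di 12 h (0.34) without control replicate 3. In a fit of all arrays 10 of the 12 FOSL2 calls were lost, those of Ota high 24 h and Kbr high 48 h being the exceptions, and Ra 48 h was added (1.24, adjusted p = 0.0273). The array of Fk 12 h replicate 3, at 4.45 against 9.06 and 8.99 in its group, enters that fit. Its part in the difference was not tested.

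The 5 probe sets of FOSL2 did not give the same picture. All 5 were called higher in Kbr high 48 h (1.03 to 2.47) and Kbr low 48 h (0.63 to 1.88). In Aa high 48 h, where the brightest one differed by 0.28 and was not called, 3 others were called higher at 0.97 to 1.55. In CdCl 48 h 3 were called higher at 0.56 to 1.93 while the brightest gave 0.13. In Ota high 24 h 4 fell, with changes of −0.88 to −3.89, and the fifth gave 0.04. In Ota high 72 h they ranged from −0.23 to 1.98 with 3 called higher. A probe set was called lower where the brightest was not called in Nnm high 24 h (−1.13), Di 12 h (−0.46) and Ota low 24 h (−1.08). With the mean of the 5, the calls of Aa low 24 h (0.35), Nnm high 48 h (0.54) and Nnm low 48 h (0.19) were lost, those of Aa high 48 h (0.97) and CdCl 48 h (0.89) appeared, and Kbr high 48 h and Kbr low 48 h moved to 1.80 and 1.39. Quantile normalization moved Ota high 72 h to 1.01. Where in the transcripts these probe sets lie was not analysed here.

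**Figure D3:**
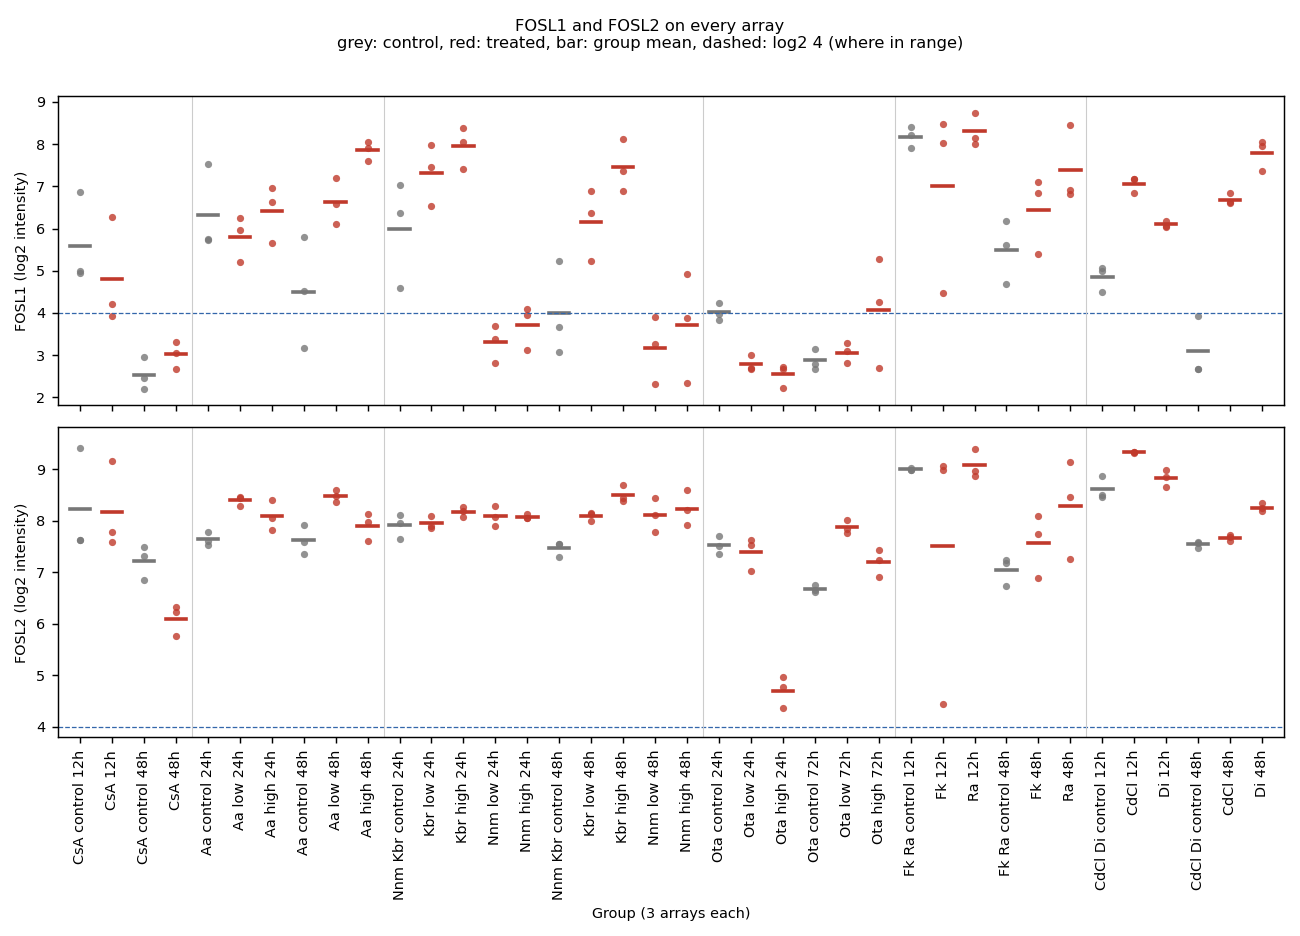
Log2 intensity of FOSL1 (top) and FOSL2 (bottom) on each array, by group, with controls in grey, treated arrays in red, group means as bars and the level of 4 dashed. FOSL1 controls stand lower at the later time in each family, and Di 48 h stands at 7.37 to 8.05 above controls at 2.66 to 3.93. FOSL2 is lowest in Ota high 24 h, at 4.36 to 4.96, and in Fk 12 h replicate 3 at 4.45.

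**Figure D4:**
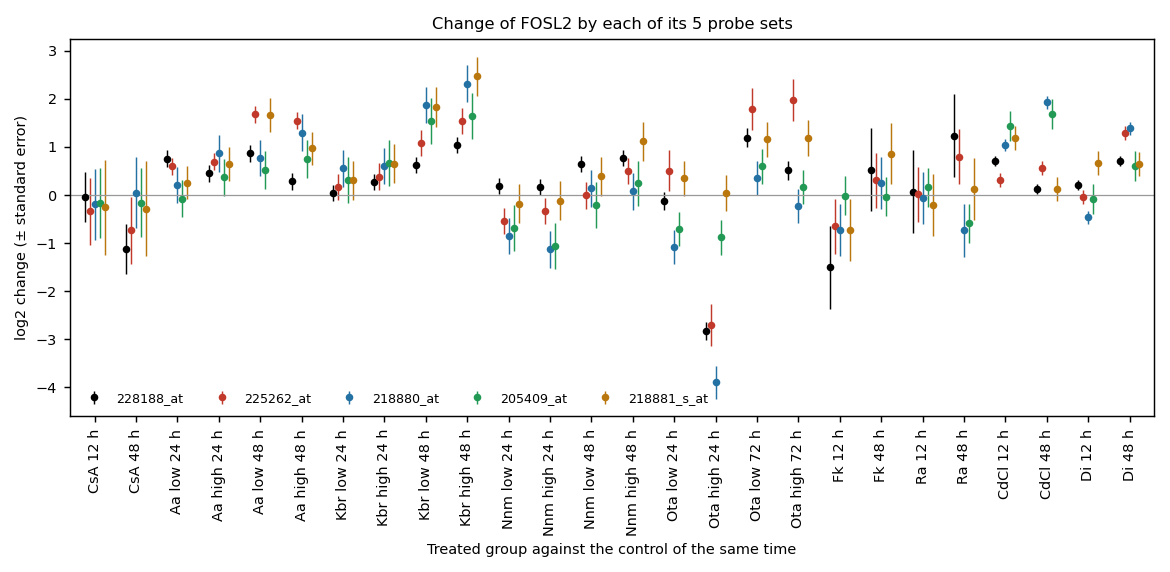
Log2 change of FOSL2 against the control, with its standard error, by each of its 5 probe sets in the 26 comparisons. The 5 lie together above 0 in Kbr high 48 h, at 1.03 to 2.47, and apart in Ota high 24 h, at −3.89 to 0.04.

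JUN, the partner of FOS proteins and a target of its own product, was high in every group, with control values from 8.30 to 11.4. It rose with Aa, Kbr, CdCl and Di and at the high dose of Nnm and Ota at the later time, and fell in no comparison. Aa high 48 h read 10.79, 10.70 and 11.40 against 8.56, 8.30 and 8.94, a rise of 2.36 ± 0.20 (adjusted p = 1.56e-07). The other Aa groups followed with 1.43 ± 0.20 (high 24 h, adjusted p = 3.86e-05) and 1.26 ± 0.20 (low 48 h, adjusted p = 0.000283). Aa low 24 h differed by 0.49, which was not called in the main fit but was with the replicate block (adjusted p = 0.00836). Of the 4 probe sets of JUN, 1 was called higher there. Kbr high 48 h read 10.68, 10.54 and 10.34 against 8.36, 8.35 and 8.75, a rise of 2.04 ± 0.27 (adjusted p = 2.11e-06), Kbr low 48 h rose by 1.58 ± 0.27 and Kbr high 24 h by 0.92 ± 0.27. CdCl 12 h read 11.06, 10.98 and 11.14 against 9.05, 9.50 and 9.70, a rise of 1.64 ± 0.14, and CdCl 48 h rose by 1.51 ± 0.14. Di 48 h read 11.36, 11.67 and 11.43 against 9.70, 9.60 and 9.68, a rise of 1.83 ± 0.14 (adjusted p = 5.31e-08). Its mean was the highest of all 38, and its arrays lay above those of the group with the next mean, CdCl 48 h. They overlapped with replicate 3 of Aa high 48 h and of the 48 h control of Fk and Ra, both at 11.40. Ota high 72 h rose by 1.09 ± 0.21 (10.63, 9.93 and 10.68 against 9.01, 9.64 and 9.32) and Nnm high 48 h by 0.92 ± 0.27. In all 11 groups the treated arrays lay above their controls.

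The 4 probe sets of JUN were all called higher in 9 comparisons, namely Aa high 24 h, Aa high 48 h, Aa low 48 h, Kbr high 48 h, Kbr low 48 h, CdCl 12 h, CdCl 48 h, Di 48 h and Ota high 72 h. They differed in Ota high 24 h, where the brightest gave −0.12 and was not called and 2 others rose by 0.63 (adjusted p = 0.0472) and 1.14 (adjusted p = 0.00174). After quantile normalization the brightest gave 0.35 there, the opposite sign, again not called. With all arrays in 1 fit JUN was called lower in Ra 48 h (−0.85, adjusted p = 0.0344). The call of Kbr high 24 h was lost without treated replicate 3 (0.87) or control replicates 1 (0.76) or 2 (0.89), and that of Nnm high 48 h without treated replicate 3 (0.72) or control replicates 1 (0.86) or 2 (0.85). Both were also lost when the probe sets marked _x_at or _s_at were dropped (0.75 and 0.50), a setting under which CdCl 12 h moved to 2.47 and Ota high 72 h to 1.76. Nnm high 48 h was further lost with the mean of the probe sets (0.61) and with its 6 arrays alone (0.92), and Di 12 h was called with that mean (0.54) and after quantile normalization (0.46). JUN was called in Di 12 h (0.53) without control replicate 3, in Nnm high 24 h (0.77) without its replicate 2, and in Nnm low 48 h without its replicate 2 (0.88) or replicate 2 of Nnm high 24 h (0.74). With the replicate block Nnm low 48 h was called as well (0.74, adjusted p = 0.0221).

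JUNB, which can restrain JUN and is an immediate early gene, stood at 6.58 to 7.62 in the controls. It moved in both directions. It rose with Aa, to 8.65, 8.03 and 8.74 in Aa high 48 h against 7.61, 6.86 and 6.90, a rise of 1.35 ± 0.26 (adjusted p = 0.000278), and by 0.99 ± 0.26 in Aa high 24 h and 0.72 ± 0.26 in Aa low 48 h, where the arrays overlapped with the controls. Aa low 24 h read 8.13, 7.44 and 7.71 against 7.18, 7.09 and 7.21, and 0.60 was called with the replicate block (adjusted p = 0.0069). With Nnm it rose at the high dose by 1.13 ± 0.42 at 24 h (8.89, 7.36 and 8.74 against 7.25, 7.07 and 7.30) and by 1.11 ± 0.42 at 48 h (8.95, 7.18 and 8.82 against 7.48, 6.93 and 7.20, overlapping). Replicate 2 was the lowest of the 3 arrays in each of the 4 Nnm groups. The same held in their controls, in every Kbr group and in every group of the Aa family. Ota high 72 h rose by 0.78 ± 0.15 (adjusted p = 0.000355). JUNB fell with Kbr, to 6.17, 5.52 and 5.98 at the high dose for 24 h, a change of −1.32 ± 0.42, and to 6.02, 5.76 and 6.43 at 48 h, a change of −1.13 ± 0.42. Di 48 h read 5.51, 6.02 and 6.04 against 7.15, 7.31 and 7.21, a change of −1.37 ± 0.13 (adjusted p = 6.47e-07), and CdCl 48 h fell by 0.59 ± 0.13 (adjusted p = 0.00196). In the 4 groups in which JUNB fell, JUN rose.

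The JUNB calls with Nnm and Kbr were the least firm. That of Nnm high 48 h, at an adjusted p of 0.0497, was lost without 23 of the 30 arrays of the family taken singly, at 0.80 to 1.25, and moved to 1.68 without its replicate 2. That of Nnm high 24 h was lost without any control replicate (1.15, 1.06 and 1.17) or treated replicates 1 (0.85) or 3 (0.92). That of Kbr high 24 h was lost without any control replicate (−1.30, −1.39 and −1.27) or treated replicates 2 (−1.13) or 3 (−1.36). That of Kbr high 48 h was lost without control replicates 1 (−0.996) or 3 (−1.14) or treated replicates 1 (−1.11) or 2 (−0.98), and that of Aa low 48 h without control replicates 2 (0.59) or 3 (0.61) or treated replicates 1 (0.57) or 3 (0.65). All 4 calls in the Nnm and Kbr family and that of Aa low 48 h were lost with no filter. The Kbr calls were lost after quantile normalization (−1.01 and −0.72) and the Nnm calls with the arrays of each comparison alone. With the replicate block, in which the numbers pair the cultures of this family, none was lost and Nnm low 24 h (0.84, adjusted p = 0.0173) and Kbr low 48 h (−0.91, adjusted p = 0.00711) were added. The last was also called without replicate 2 of Nnm high 48 h, with all arrays in 1 fit and with its 6 arrays alone. Quantile normalization called JUNB higher in Ota high 24 h (0.80, adjusted p = 0.000798), CdCl 12 h (0.42, adjusted p = 0.00666) and Aa low 24 h (0.72, adjusted p = 0.0399). The fit of all arrays ended the calls of CdCl 48 h (−0.59) and Aa low 48 h (0.72), and a fit of 6 arrays alone called Kbr low 24 h (−0.63) and Ra 12 h (0.64). Those of Di 48 h, CdCl 48 h, Ota high 72 h and both times of Aa high were called whichever single array was left out.

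JUND, the steady member, stood at 11.7 to 12.6 in all 36 control arrays. In Ota high 24 h it read 7.42, 6.65 and 8.67 against 11.92, 11.79 and 12.12, a change of −4.36 ± 0.33 (adjusted p = 2.14e-08), and in Ota high 72 h 10.01, 9.65 and 10.30 against 12.54, 12.61 and 12.55, a change of −2.58 ± 0.33 (adjusted p = 6.5e-06). These were the lowest of the 38 group means, and their arrays were separate from each other and from the group with the next mean. The single array of Fk 12 h replicate 3, at 10.26, lay within the range of Ota high 72 h. The low dose of Ota read 11.53, 11.48 and 11.66 at 24 h and 12.37, 12.44 and 12.54 at 72 h, just below the controls, and was not called. The 3 probe sets of JUND above background all fell, with changes of −4.36, −1.56 and −1.18 at 24 h and −2.58, −2.13 and −2.17 at 72 h. The mean over its probe sets was −1.77 and −1.72, and after quantile normalization the brightest gave −3.73 and −2.53. The median change of all genes was −0.29 and −0.15 in these comparisons.

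Smaller falls of JUND were called in Kbr high 24 h (−0.74 ± 0.20), Kbr high 48 h (−0.83 ± 0.20), Nnm high 24 h (−0.70 ± 0.20), Aa high 48 h (−0.56 ± 0.16) and Di 48 h (−0.43 ± 0.06). In each the 3 arrays lay below the controls, for example at 11.76, 11.79 and 11.78 in Di 48 h against 12.23, 12.23 and 12.15. Of the 3 probe sets tested, 1 was called lower in Kbr high 24 h, Aa high 48 h and Di 48 h. In Kbr high 48 h and Nnm high 24 h 2 were, and those not called changed in the same direction. In CdCl 12 h it rose by 0.40 ± 0.06, to 12.18, 12.24 and 12.16 against 11.70, 11.81 and 11.87, by 3 of its probe sets. The calls of Kbr high 24 h and Nnm high 24 h were lost without control replicate 1 (−0.66 and −0.61), the second also without treated replicate 3 (−0.50) and with its 6 arrays alone. The mean of the probe sets ended the calls of Aa high 48 h (−0.35) and Di 48 h (−0.20) and moved Kbr high 24 h and 48 h to −0.42 and −0.45. All probe sets of JUND bear the suffixes _x_at or _s_at, which mark possible cross-hybridization, and it was not measured when these were left out. Calls of Di 48 h and CdCl 12 h were also lost with all arrays in 1 fit.

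**Figure D5:**
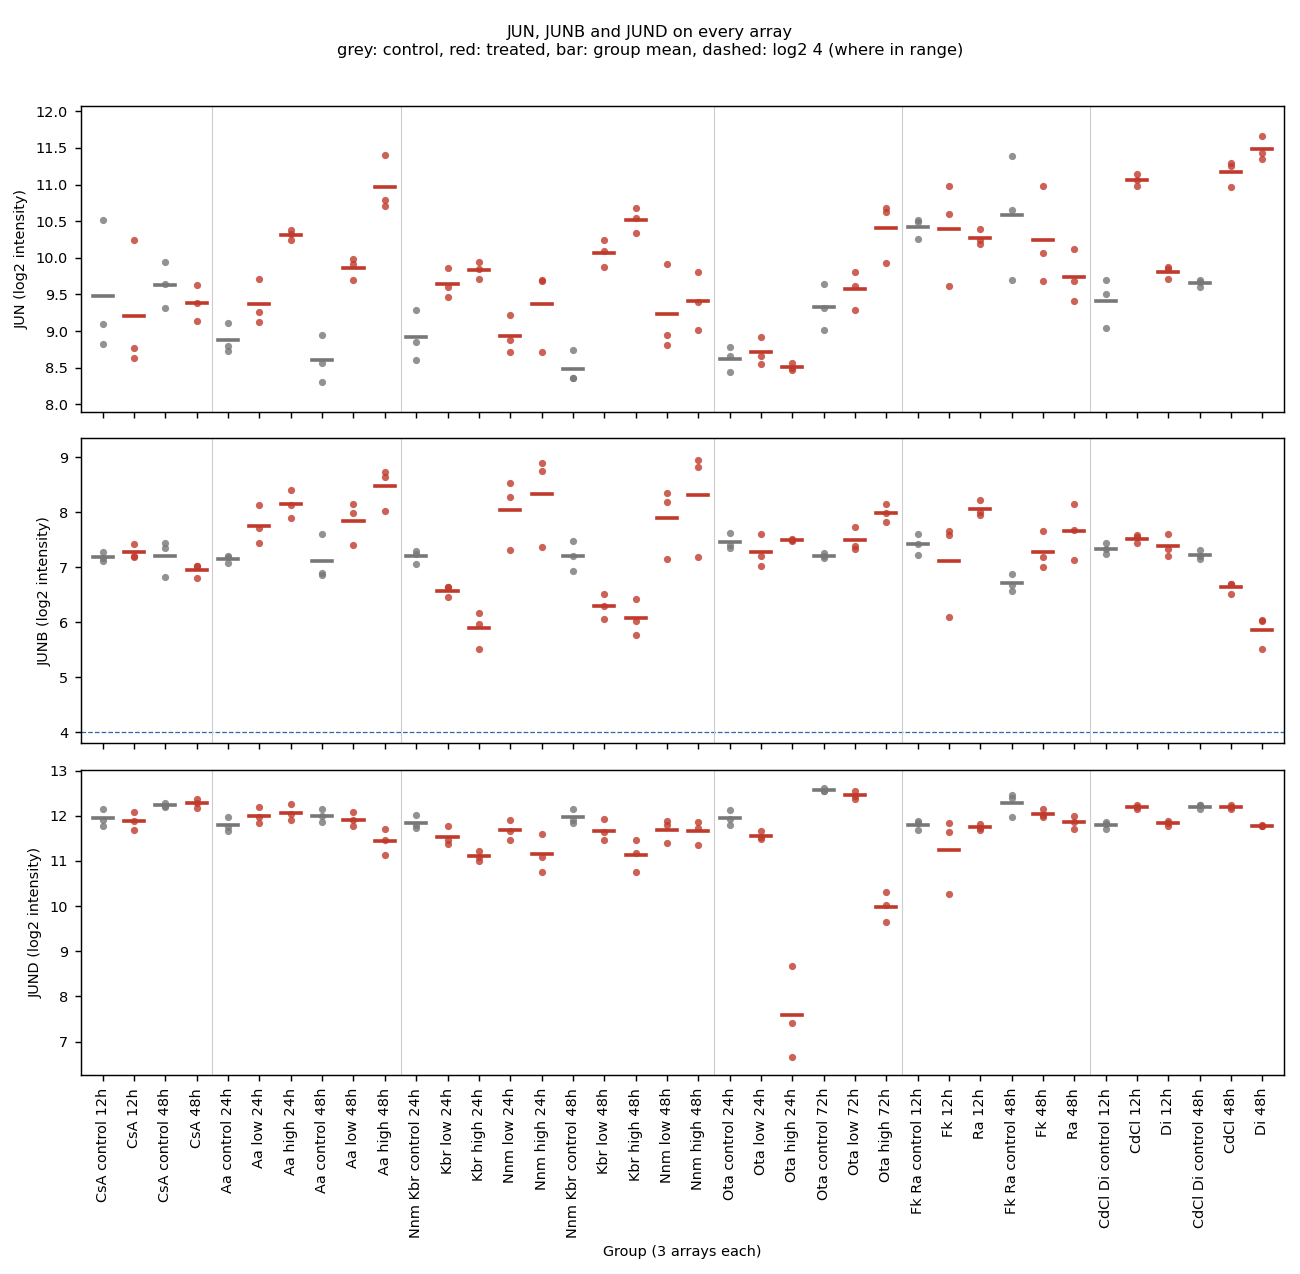
Log2 intensity of JUN (top), JUNB (middle) and JUND (bottom) on each array, by group, with controls in grey, treated arrays in red, group means as bars and the level of 4 dashed where it is in range. JUN stands at 10.70 to 11.40 in Aa high 48 h and 11.36 to 11.67 in Di 48 h. JUNB lies at 5.51 to 6.04 in Di 48 h, and JUND at 6.65 to 8.67 in Ota high 24 h and 9.65 to 10.30 in Ota high 72 h.

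With CsA, Fk and Ra no member was called in any comparison with a control. In CsA 12 h and 48 h the 5 genes tested differed by at most 0.79 and 1.12 in size. In Fk 12 h replicate 3 stood apart, with FOSL1 at 4.48, FOSL2 at 4.45 and JUND at 10.3 against 8.04 to 8.48, 8.99 to 9.06 and 11.6 to 11.8 on the other 2 arrays. Without it, the FOSL2 difference went from −1.50 to 0.02, that of FOSL1 from −1.18 to 0.08 and that of JUND from −0.55 to −0.06, and none was called. With it left out of the fit, FOSL1 (1.89, adjusted p = 0.0246), FOSL2 (1.24, adjusted p = 0.0443) and JUNB (0.95, adjusted p = 0.0199) were called higher in Ra 48 h, where all 3 treated arrays lay above the controls. The same omission called a fall of FOSL2 (−1.95) and JUNB (−0.71) and a rise of JUND (0.48) in the controls between 12 and 48 h. Without replicate 2 of Ra 48 h, the array with the lowest upper quartile, FOSL1 differed by 2.13, FOSL2 by 1.75 and JUNB by 1.21, and these were not called. After quantile normalization JUNB was called in Ra 48 h (1.21, adjusted p = 0.0178). In the fit of all arrays FOS, FOSL1, FOSL2 and JUNB were called higher and JUN lower in Ra 48 h.

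The dose was compared at matched times in 8 pairs of groups, and 12 member values were called. In Aa 48 h (44.8% of all genes called) FOSB was higher at the high dose by 4.70 ± 0.48, FOS by 3.17 ± 0.33 and JUN by 1.10 ± 0.20, while FOSL2 (−0.58 ± 0.17) and JUND (−0.48 ± 0.16) were lower. In Aa 24 h (26.4%) JUN was higher by 0.95 ± 0.20. With the replicate block FOSL1 (1.23, adjusted p = 0.0109) and JUNB (0.62, adjusted p = 0.00302) were called too in Aa 48 h. In Ota 24 h (58.9%) FOSL2 (−2.70 ± 0.19) and JUND (−3.98 ± 0.33) were lower at the high dose. In Ota 72 h (57.8%) JUND (−2.46 ± 0.33) and FOSL2 (−0.68 ± 0.19) were lower, and JUN and JUNB were higher by 0.84 ± 0.21 and 0.50 ± 0.15. No member was called between the doses of Kbr or Nnm. Of all 11036 genes tested, 6 were called between the Kbr doses at 24 h and 886 at 48 h. Between the Nnm doses 0 were called at either time. With replicate 2 of Nnm high 24 h left out, JUN (0.75) and JUND (−0.75) were called between the doses of Nnm at 24 h. The block called FOSL1 (1.30, adjusted p = 0.0188) and JUND (−0.54, adjusted p = 0.00844) between the doses of Kbr at 48 h. The FOSL2 difference in Aa 48 h was lost without replicate 3 of the high dose (−0.43) and that of JUND without replicate 2 of the high (−0.33) or 1 of the low dose (−0.39). The JUNB difference in Ota 72 h was lost without replicate 1 of the low dose (0.42). The FOSL2 difference in Ota 72 h was lost after quantile normalization (−0.20). With the mean of the probe sets it was −0.30 and that of Aa 48 h −0.13, neither called, and the JUND difference in Aa 48 h was −0.30 and lost. The last was lost too with the arrays of the comparison alone, and the fit of all arrays ended the calls of FOSL2 in Aa 48 h and Ota 72 h, of JUND in Aa 48 h and of JUNB in Ota 72 h. FOSL1 was called in Ota 72 h without replicate 2 of the high dose (1.71, adjusted p = 0.000103). JUNB was called in Ota 24 h without replicate 2 of the low dose (0.38) and in Aa 48 h without control replicate 1 (0.62), high replicate 2 (0.85) or low replicate 1 (0.78). In Aa 24 h FOS was called without replicate 3 of the high dose (1.17) and FOSB without replicate 2 of Aa low 48 h (0.73).

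Whether a response differed between the 2 times was tested as the response at the later time minus that at the earlier. Of 77 such values 23 were called, in Aa high (5 of 7, background 18.8%), Aa low (1 of 7, 1.31%), Ota high (5 of 5, 53.4%), Ota low (1 of 5, 6.3%), CdCl (5 of 6, 30.4%) and Di (6 of 6, 33.6%). None was called for CsA, Fk, Ra, Kbr or Nnm. Over all genes tested, 0 were called for CsA, Fk, Kbr low, Nnm low and Nnm high. For Ra 5 of 10889 genes were called, and for Kbr high 209 of 11036. With Aa high the responses of FOS, FOSB, FOSL1 and JUN were larger at 48 h, by 4.64 ± 0.47, 5.13 ± 0.68, 3.28 ± 0.84 and 0.93 ± 0.29, and JUND went the other way at −0.84 ± 0.22. In Aa low only FOS was called, at 2.28 ± 0.47. In Ota high all 5 genes were more positive at 72 h by their brightest probe sets, FOSL2 by 3.34 ± 0.27 and JUND by 1.78 ± 0.47. The other JUND probe sets above background went the opposite way, with larger falls at 72 h than at the earlier time. The mean of the JUND probe sets gave 0.06. With Di, FOSL1 gained 3.45 ± 0.39 and JUN 1.43 ± 0.20 by 48 h while FOS lost 1.06 ± 0.22 and JUNB 1.41 ± 0.19. CdCl gave the same order at smaller sizes for FOSL1, FOS and JUNB, at 1.39, −0.73 and −0.77, with JUN not called (−0.13). With the mean of its probe sets JUN was called lower there (−0.61, adjusted p = 0.0155), and likewise without those marked _x_at or _s_at (−0.94, adjusted p = 0.0496). These 2 compounds share controls. With the replicate block FOSL1 (2.66, adjusted p = 0.00928) and JUN (0.78, adjusted p = 0.0191) were called in Aa low, and FOSL2 (0.77, adjusted p = 0.0309) and JUN (1.11, adjusted p = 0.0399) in Kbr high.

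Some of these differences between times were no longer called when 1 array was left out. FOS in Aa low was lost without any of 7 arrays (2.12 to 2.31), namely control 24 h replicates 2 and 3, control 48 h replicates 1 and 2, treated 24 h replicates 2 and 3 and treated 48 h replicate 1, and FOSL1 was called there without control 48 h replicate 3 (3.31). JUN in Aa high was lost without any of 7 arrays (0.71 to 0.97), namely control 24 h replicates 1 and 3, control 48 h replicates 1 and 2, treated 24 h replicates 1 and 2 and treated 48 h replicate 3. FOS in CdCl was lost without CdCl 12 h replicates 1 (−0.69) or 2 (−0.64), CdCl 48 h replicate 3 (−0.63) or control 12 h replicate 1 (−0.68). FOSL1 in Ota low was called without replicate 2 of Ota high 72 h (1.41, adjusted p = 0.0227). The mean of the probe sets ended the calls of JUND in Ota high (0.06), Aa high (−0.47) and Di (−0.22) and of FOSL2 in CdCl (−0.05) and Ota low (1.23). Quantile normalization ended that of JUNB in Ota high (0.34). The fit of all arrays ended 12 of the 23, which were all 5 with CdCl (adjusted p = 0.311 to 0.67), FOS, FOSL2 and JUND with Di, FOSL2 in Ota low, JUNB in Ota high, and JUN and JUND in Aa high. With no filter FOS in Aa low and JUN in Aa high were lost, the second also without probe sets marked _x_at or _s_at.

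Among the controls, the other calls between times were lower FOSL2 in Ota (−0.85 ± 0.19, background 28.8%) and in CdCl with Di (−1.07 ± 0.10), higher JUN in Ota (0.70 ± 0.21) and higher JUND in CdCl with Di (0.41 ± 0.06). FOSL2 in the CdCl and Di controls went from 8.47, 8.50 and 8.87 to 7.47, 7.59 and 7.57. The JUN call was lost without control 24 h replicate 3 (0.61) or control 72 h replicates 2 (0.54) or 3 (0.70), and dropping probe sets marked _x_at or _s_at took it to 0.08. JUN was called in the CdCl and Di controls without 12 h replicate 3 (0.38). The FOSL2 call in Ota was lost with the mean of the probe sets (−0.63). JUND was called in the Ota controls (0.63) without replicate 3 of Ota high 24 h, in the fit of all arrays and in that of the 6 control arrays. The fit of all arrays ended the 4 calls of FOSL2, JUN and JUND in these controls, and no filter ended that of FOSL1 with Fk and Ra.

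Genes around AP-1 were taken from 3 lists and counted at the later time and the high dose of each compound. The shares of all genes beside these counts are of calls in either direction. By direction, 3311 of 11106 genes were called higher and 3828 lower in Aa high 48 h. Of 11036 genes, 2449 were higher and 3194 lower in Kbr high 48 h, and 1695 and 1358 in Nnm high 48 h. Of 11138 genes, 2821 were higher and 4223 lower in Ota high 72 h. Of 11045 genes, 2529 were higher and 2601 lower in CdCl 48 h, and 2368 and 2863 in Di 48 h. Of 10889 genes, 204 were higher and 812 lower in Ra 48 h. Of 8 partners with a basic leucine zipper that were tested, 4 rose and 4 fell in Aa high 48 h, where 64.3% of all genes were called, and 3 rose and 1 fell in Kbr high 48 h (51.1%). CdCl 48 h (46.4%) had 4 rises and 1 fall, Di 48 h (47.4%) 3 and 1, and Ota high 72 h (63.2%) 2 and 3. With 8 genes, the counts of CdCl, Di and Ota cannot be set apart from those shares. Nnm high 48 h (27.7%) and Ra 48 h (9.33%) had 1 fall each, and none was called in CsA 48 h or Fk 48 h. ATF3, a stress-induced partner of JUN, rose by 6.89 ± 0.42 in Aa high 48 h, by 4.33 ± 1.28 with Kbr, by 2.94 ± 0.27 with Di and by 1.95 ± 0.27 with CdCl, and fell by 3.61 ± 0.87 in Ra 48 h, the group with the array of lowest upper quartile. The small MAF gene MAFF rose by 2.65 ± 0.18, 1.82 ± 0.31, 1.96 ± 0.09 and 2.20 ± 0.09 in the same order of groups. In Ota high 72 h JDP2, a repressor that pairs with JUN, fell by 2.47 ± 0.25 and ATF2 by 2.07 ± 0.19. BATF3 fell by 1.39 ± 0.45 in Nnm high 48 h with overlapping arrays. The 8 genes' median change was 0.30 in Aa high 48 h, 0.58 in CdCl 48 h and −0.28 in Ota high 72 h, beside −0.04, −0.02 and −0.15 for all genes.

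Of 17 kinases and factors upstream of AP-1, 0 rose and 9 fell in Aa high 48 h, against a background of 64.3%, and the list's median was −0.35. In Nnm high 48 h the count ran the other way, with 7 higher and 1 lower (background 27.7%). Kbr high 48 h had 3 higher and 6 lower (51.1%), CdCl 48 h 5 of each (46.4%), and Ota high 72 h (63.2%) and Di 48 h (47.4%) 6 higher and 4 lower each. The number called was thus below or near the background in Aa, Kbr and Ota. None was called with CsA, Fk or Ra. MAPK10, which encodes the kinase JNK3, fell by 2.30 ± 0.43 with Aa, 2.00 ± 0.63 with Kbr, 2.28 ± 0.29 with Ota, 1.96 ± 0.27 with CdCl and 1.54 ± 0.27 with Di, from control means of 5.18 to 5.44 to 3.09 to 3.65. RPS6KA3, the kinase RSK2, fell by 1.62 ± 0.24 in Kbr high 48 h. MAP3K5, a stress kinase known as ASK1, fell by 2.17 ± 0.19 in Aa high 48 h and rose by 1.34 ± 0.39 in Nnm high 48 h. ELK3, a ternary complex factor, rose by 1.30 ± 0.32 in Nnm high 48 h, 1.99 ± 0.25 in Ota high 72 h and 0.75 ± 0.25 in CdCl 48 h and fell by 0.89 ± 0.25 in Di 48 h.

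Of 17 known targets of AP-1, 12 or 13 were tested. In Ota high 72 h 11 rose and 1 fell with a median of 1.91, where 63.2% of all genes were called. In Aa high 48 h 8 rose and 1 fell with a median of 1.15 (background 64.3%), in CdCl 48 h 8 and 1 with 1.38 (46.4%) and in Di 48 h 6 and 2 with 0.21 (47.4%). In Kbr high 48 h 1 rose and 2 fell with a median of 0.06 (51.1%), in Nnm high 48 h 2 and 0 with 0.31 (27.7%), in Ra 48 h 1 and 0 (9.33%), and none with CsA or Fk. The growth factor gene HBEGF rose by 5.61 ± 0.35 and the cytokine gene IL6 by 4.89 ± 0.90 in Aa high 48 h, and HBEGF by 2.71 ± 0.63 in Kbr high 48 h. PLAUR, the urokinase receptor, rose by 6.07 ± 0.24 and the collagenase MMP1 by 5.58 ± 0.69 in Ota high 72 h. MMP1 rose by 3.87 ± 0.19 and PLAUR by 2.30 ± 0.22 in CdCl 48 h. PLAU, urokinase itself, and CCND1, cyclin D1, rose by 1.62 ± 0.10 and 1.47 ± 0.14 in Di 48 h. In Nnm high 48 h PLAUR rose by 2.33 ± 0.70 and the protease inhibitor TIMP1 by 0.44 ± 0.10, in Ra 48 h MMP1 rose by 1.50 ± 0.41, and in Kbr high 48 h the filament gene VIM fell by 0.45 ± 0.17. In Kbr high 48 h, where FOSL1 rose by 3.47 and JUN by 2.04, 1 of 13 targets rose, and in Ota high 72 h, where they rose by 1.20 and 1.09, 11 of 13 did. Of all genes tested, 2449 of 11036 were called higher in Kbr high 48 h and 2821 of 11138 in Ota high 72 h. The difference between the 2 counts of targets was not tested.

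Similarity of level was described over the 38 group means, for members measured in all 6 families, among 10523 genes. The closest to JUN were PMAIP1 (r = 0.924), GADD45A (0.852) and PEA15 (0.851). FOSL1 was closest to ZYX (0.867), CCND1 (0.83) and TNFRSF12A (0.817), and FOSL2 to FRMD8 (0.844), E2F7 (0.84) and GPD2 (0.836). JUNB was closest to CHST7 (0.857), TMEM107 (0.769) and SHISA2 (0.765). JUND was closest to SGSH (0.934), WASHC4 (0.93) and CYBC1 (0.93). Its group means stood at 11.1 or above except in Ota high 24 h (7.58) and Ota high 72 h (9.99), which weigh heavily in these r values. PMAIP1 and GADD45A are known p53 targets, CCND1 encodes cyclin D1 and ZYX zyxin, a protein of focal adhesions. The groups of a family share controls, so these r values are descriptions.

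In the order of the 38 group means, neighbours overlapped in most places. For FOSL1 and JUNB none of the 37 neighbouring pairs was separate, for FOS, FOSB and JUN 1 was, for JUND 3 and for FOSL2 4. The highest FOSL1 means were Ra 12 h at 8.31 and its 12 h control at 8.18, and the lowest the CsA 48 h control at 2.53 and Ota high 24 h at 2.54. JUNB ran from 8.47 in Aa high 48 h to 5.86 in Di 48 h. JUN ran from 11.5 in Di 48 h to 8.49 in the 48 h control of Nnm and Kbr, FOSL2 from 9.33 in CdCl 12 h to 4.70 in Ota high 24 h, and JUND from 12.6 in the Ota 72 h control to 7.58 in Ota high 24 h.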

How the data were processed

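RNA of HK-2 cultures, 3 in each of 38 groups, was hybridized to Affymetrix arrays. The deposited values are log2 intensities that the authors made with GCRMA, per the submitters' processing notes; its version and settings are not given in the sources used here. Background correction of this kind sets low genes near a common floor, which compresses their changes. Of 54675 probe sets, 41091 had 1 symbol, 1801 several and 11721 none in the platform annotation, and the first gave 19775 genes, each read from its probe set with the highest mean.

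limma 3.58.1 (R 4.3.3) was fitted over all genes for each of the 6 control families, with 10806 to 11138 genes tested per family, and p-values were adjusted by Benjamini-Hochberg over those genes. A gene is called at an adjusted p under 0.05. Errors are standard errors of the fit. The fit was tested on simulated data, and figures were drawn with matplotlib 3.10.9. Python 3.11.15, pandas 2.3.3 and numpy 2.4.6 were used for tables.

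Replicate numbers come from the sample titles. Residuals of same-numbered arrays correlated in every pair for CsA (r 0.534 to 0.931), Aa (0.28 to 0.537) and Nnm with Kbr (0.139 to 0.673), and not in every pair for Ota (−0.0542 to 0.409), Fk with Ra (−0.176 to 0.76) and CdCl with Di (−0.274 to 0.16). The first 3 families were taken as paired, but only in an alternative fit with the number as a block. All other calls, errors and adjusted p-values leave the pairing out, as do the fits with 1 array omitted. Values with the block are given where they change a call.

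The 7 genes and the 3 lists were chosen with earlier results of these data known. The lists were 12 partners, 20 upstream genes and 17 targets, and some genes of the lists and of the markers are not reported here. Genes named from the lists are the 2 called genes with the largest change per comparison, and those named for similarity the 3 with the highest r. Alternatives were the block, other filters, probe set choices, quantile normalization, limma's trend option, wider and narrower fits and each array left out.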

Additional observations from a re-analysis of the deposited data

Results flagged for a closer look

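The response differed between the earlier and the later time, by limma's test of the difference itself with adjustment over all genes, for 23 values of these genes. Each value below is the later response minus the earlier, on the log2 scale. With the high dose of Aa the differences were 4.64 for FOS, 5.13 for FOSB, 3.28 for FOSL1, 0.93 for JUN and −0.84 for JUND, and with its low dose 2.28 for FOS. With the high dose of Ota they were 2.67 for FOSL1, 3.34 for FOSL2, 1.21 for JUN, 0.74 for JUNB and 1.78 for JUND, and with its low dose 1.32 for FOSL2. With CdCl they were −0.73 for FOS, 1.39 for FOSL1, −0.58 for FOSL2, −0.77 for JUNB and −0.42 for JUND. With Di they were −1.06 for FOS, 3.45 for FOSL1, 0.51 for FOSL2, 1.43 for JUN, −1.41 for JUNB and −0.46 for JUND. The CdCl value of FOSL2 was −0.05 with the mean of its probe sets (adjusted p = 0.868), and with all arrays in 1 fit neither FOSL2 value of CdCl and Di was called (adjusted p = 0.67 and 0.721). The change of FOSL1 in the CdCl and Di controls over the same interval was −1.76. The Ota high value of JUND was 0.06 with the mean of its probe sets (adjusted p = 0.803 by limma). Its probe sets above background other than the brightest fell further at the later time.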

How the results depend on the processing

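Of the 61 calls against a control, 40 were made whichever single array of the family was left out, as were 9 of 12 between doses, 20 of 23 between times and 4 of 7 in the controls. With each array left out in turn, the calls numbered 53 to 64 against controls, 11 to 14 between doses, 21 to 24 between times and 6 to 10 in the controls. By gene they were 5 to 7 for FOS, 1 to 2 for FOSB, 11 to 14 for FOSL1, 11 to 13 for FOSL2, 10 to 13 for JUN, 7 to 11 for JUNB and 6 to 8 for JUND. With no filter FOSB had 2 calls and JUNB 5. With a filter at log2 6, under which fewer genes were tested, FOS had 2. With all arrays in 1 fit FOSB had 5, FOSL2 3 and the differences between times 11, and with the arrays of each comparison alone FOS had 2; the cause was not tested. Without probe sets of the suffixes _x_at and _s_at JUND had 0, because no probe set of it remained in the limma test. The trend option ended no call.

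Among comparisons with a control in which a probe set giving the opposite sign, or the brightest one itself, was called, the sign was opposite for FOSL2 in Aa low 24 h (−0.0719), Nnm high 24 h (−1.13), Nnm low 48 h (−0.0075 and −0.20), Ota high 24 h (0.0421), Ota high 72 h (−0.23) and Di 12 h (−0.46), and for JUN in Ota high 24 h (1.14 and 0.63); the cause was not tested. The replicate block added 16 calls and ended 0, giving 67 against controls, 16 between doses, 27 between times and 9 in the controls. In the CsA family and in those that were not paired it changed no call. Signal near the array background limits FOS and FOSB in the controls, and FOSL1 in some of them, and 3 arrays per group limit the precision of every value.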
